A study of Saccharomyces cerevisiae with 18 samples.

Results

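Giant colonies of the wild *Saccharomyces cerevisiae* strain BR-F were compared with those of the smooth strain BR-S after 7 days of growth, on 3 of the 18 spotted two-colour arrays of the series. The arrays were chosen by their titles alone, which name the BR-F and BR-S couple on day 7. BR-F is a natural isolate that forms structured, biofilm-like colonies, and BR-S is an isogenic derivative that arose from it under laboratory cultivation and forms smooth colonies. The series also contains BR-RF, a feral derivative that regained a structured colony, and it pairs these 3 strains with each other on days 4 and 7, always on 3 arrays. Both strains were grown as giant colonies on GMA agar, in which glycerol is the carbon source and yeast extract the source of nitrogen, and whole colonies were harvested, with more biomass of BR-F than of BR-S per RNA isolation. Each strain is a single lineage, so a ratio of BR-F over BR-S belongs to this pair of strains. RNA of many cell layers was pooled in each colony, so fewer cells of a type and less RNA per cell cannot be told apart in any ratio given here. According to the deposited record, array 2 repeated the hybridisation of array 1 with exchanged dyes, and array 3 carried a second biological replicate. BR-F was labelled with Cy5 on array 1 and with Cy3 on arrays 2 and 3. Nothing in the record says whether the 2 biological replicates came from separate platings, so the spread between replicates may be technical. The p-values measure that spread pooled over all 6 couples and days of the series, not over these 3 arrays alone.

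While preferred nitrogen sources such as ammonium and glutamine are present, permeases and enzymes for poorer sources are repressed, which is called nitrogen catabolite repression. Yeast cells that run short of preferred sources release the GATA factors Gln3p and Gat1p from repression. Genes for those permeases and enzymes are then transcribed. Giant colonies pass through acidic and alkaline phases and release ammonia as they age, and the Ato proteins of the plasma membrane belong to this ammonia signalling. In structured colonies cells adhere through the flocculin Flo11p and an extracellular matrix, and filamentous growth is regulated by cAMP and MAP kinase signalling together with nitrogen supply. Genes close to chromosome ends lie in chromatin that Sir proteins and the deacetylase Hda1p can repress, and many of them belong to families for alternative sugars and cell surface proteins.

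The 3 arrays held 9290, 9673 and 10094 usable spots with a gene name, within the range of 8040 to 10291 over all 18 arrays. All values below are log2 ratios of BR-F over BR-S unless said otherwise, so that values above 0 are higher in BR-F. Errors are standard errors of the mean over 2 biological replicates from the fit, with the spread pooled over all couples and days. Across genes, the ratios of arrays 2 and 3 correlated at r = 0.841, those of arrays 1 and 2 at 0.609 and those of arrays 1 and 3 at 0.546, genes not being independent replicates. Array 1 thus stood apart from array 2, although the record gives both the same RNA. Its single-channel log2 intensities also correlated less with those of array 2 (0.469 for BR-F and 0.483 for BR-S) than arrays 2 and 3 did with each other (0.751 and 0.755). Arrays 2 and 3 share their dye orientation, so the dye and the RNA as sources of this gap cannot be told apart. The 2 biological replicates, with arrays 1 and 2 averaged to the first, correlated at r = 0.715.

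Of 4902 genes measured in both biological replicates, 298 were higher in BR-F (6.08% of the genes tested) and 250 were lower (5.1%), which is 11.2% in either direction at an adjusted p under 0.05 in limma. Counts for each gene list below are to be read against these shares of all genes. The ratios of 268 of the higher and 237 of the lower genes had the same sign on all 3 arrays. Higher genes reached larger ratios than lower genes, since 138 were at least 2-fold and 22 at least 4-fold higher, against 74 and 2 that were lower by as much. The median ratio over all tested genes was 0.00 and the median standard error 0.19. In simulated data of the same size the test recovered 19.4% of genes changed 1.5-fold, 88.1% of those changed 2-fold and all of those changed 4-fold, so changes near 1.5-fold were mostly below detection. Without array 1 there were 493 called genes and without array 2 577, but without array 3, which is the whole second biological replicate, only 93 were called, and 154 of the 206 called genes that the naming rule took up no longer passed. Every such gene kept its sign when an array was left out.

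**Figure D1:**
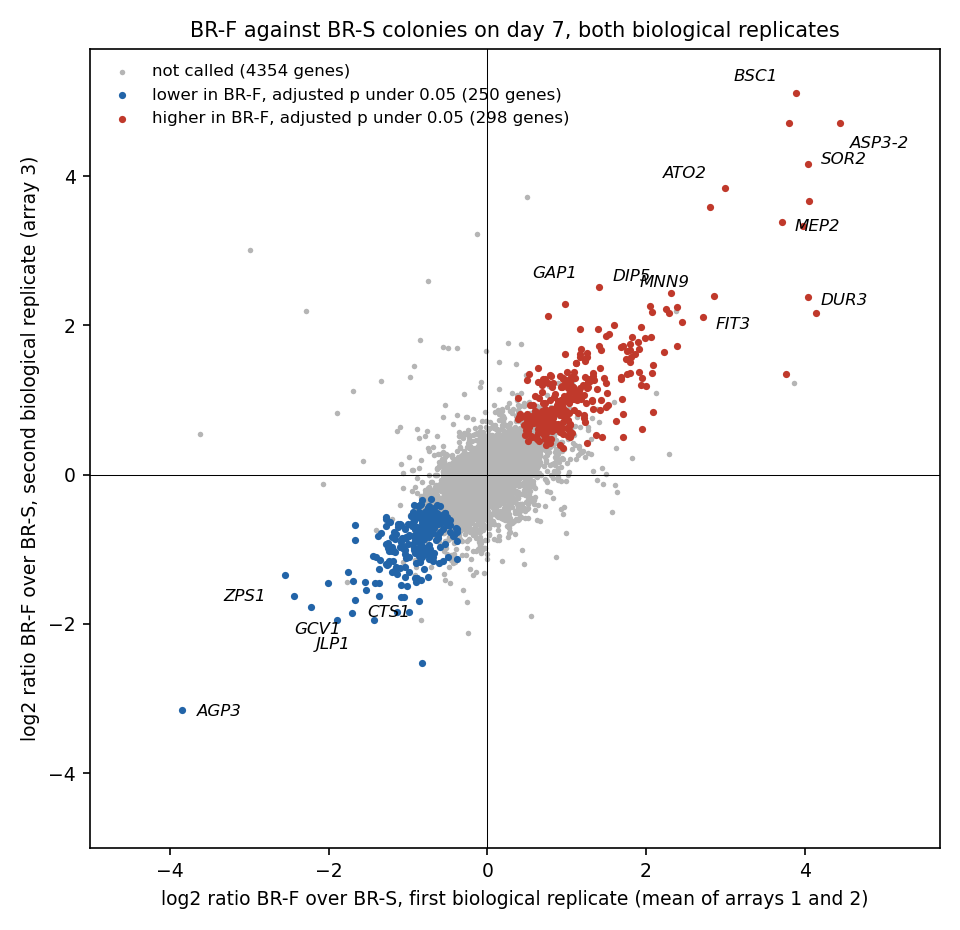
Each point is a gene, with its log2 ratio of BR-F over BR-S in the first biological replicate (mean of arrays 1 and 2) on the x axis and in the second (array 3) on the y axis. The 298 genes called higher and the 250 called lower are coloured, and the replicates correlate at r = 0.715 over the tested genes.

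The asparaginase II copies *ASP3-1* to *ASP3-4*, which encode a periplasmic enzyme that frees ammonium from asparagine, were among the genes with the largest ratios, and *ASP3-2* had the largest of the genes called. Their sequences are near identical, so they share signal and count as 1 observation. *ASP3-2* (YLR157C) gave 4.64, 4.24 and 4.71 on arrays 1 to 3, a mean of 4.57 ± 0.50 (adjusted p = 0.000575). All 3 arrays lay far above 0 and within a narrow range, and the ratios of the other copies were 3.86, 4.25 and 3.65. The background-subtracted intensity of *ASP3-1* was 42704, 10649 and 20927 in BR-F and 1616, 1133 and 3032 in BR-S, where it exceeded the background on 2 of the 3 arrays. *BSC1* (YDL037C), whose product resembles the flocculins, gave 3.77, 3.99 and 5.11 on the 3 arrays, a mean of 4.50 ± 0.40 (adjusted p = 0.000161) or 22.6-fold. Its BR-S intensities of 1656, 2239 and 2937 were all above background, and each was below the lowest BR-F intensity of 23893.

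*SOR2* (YDL246C) and *SOR1* (YJR159W), near-identical sorbitol dehydrogenases near chromosome ends, were also among the genes with the largest ratios. *SOR2* gave 4.03, 4.05 and 4.16 on arrays 1 to 3, a mean of 4.10 ± 0.96 (adjusted p = 0.029). These 3 ratios lay close together, and the error reflects spread pooled over all couples and days. Duplicate spots of *SOR2* disagreed on array 1, and BR-S was above background on 1 array only. *SOR1* gave 5.85, 2.42 and 2.16, a mean of 3.15 ± 0.57 (adjusted p = 0.00993), so that array 1 lay well above the other 2 arrays, which were close to each other. *DUS4* (YLR405W), a tRNA dihydrouridine synthase, and *MNN9* (YPL050C), part of the Golgi enzyme complexes that build the mannan backbone, were raised on all arrays. The ratios of *DUS4* were 2.81, 2.81 and 3.59 (mean 3.20 ± 0.41, adjusted p = 0.00108), and those of *MNN9* were 2.55, 3.17 and 2.40 (mean 2.63 ± 0.21, adjusted p = 0.000106). No array of either gene lay near 0. *ACH1* (YBL015W), a mitochondrial CoA transferase acting on acetyl-CoA, gave 2.32 ± 0.26, *TIP1* (YBR067C), a cell wall mannoprotein, 2.22 ± 0.23, and *SPP381*, a splicing factor, 2.16 ± 0.51, with adjusted p-values of 0.00081, 0.000395 and 0.0229. *ASP3-2*, *BSC1*, *DUS4*, *MNN9*, *ACH1* and *TIP1* passed the test with any single array left out, whereas *SOR2* and *SPP381* did not pass without array 3 (adjusted p = 0.222 and 0.22).

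At the other end, *AGP3* (YFL055W), a low-affinity amino acid permease, had the lowest ratios, -5.63, -2.05 and -3.15. Its BR-F intensity was not above background on any array (118, 640 and 587) while its BR-S intensity was above it on all 3 (8424, 4217 and 9581). The mean was -3.50 ± 0.26 (adjusted p = 0.000378). With BR-F signals below the lowest detected signal of each array raised to it, the mean difference was 5.5-fold. That value is no lower bound, and the size of the difference is uncertain. *ZPS1* (YOL154W), a wall protein induced by low zinc, gave -3.23, -1.64 and -1.63 (mean -2.03 ± 0.19, adjusted p = 0.00021). *YGP1* (YNL160W), a secreted glycoprotein induced by nutrient limitation, gave -0.30, -1.35 and -2.53 (mean -1.68 ± 0.33, adjusted p = 0.0098), with array 1 near 0 and array 3 far below. BR-F was above background on 2 of the 3 arrays for both *ZPS1* and *YGP1*. Other genes with very low ratios act in sulfur, glycine and daughter cell functions and are described with those groups.

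**Figure D2:**
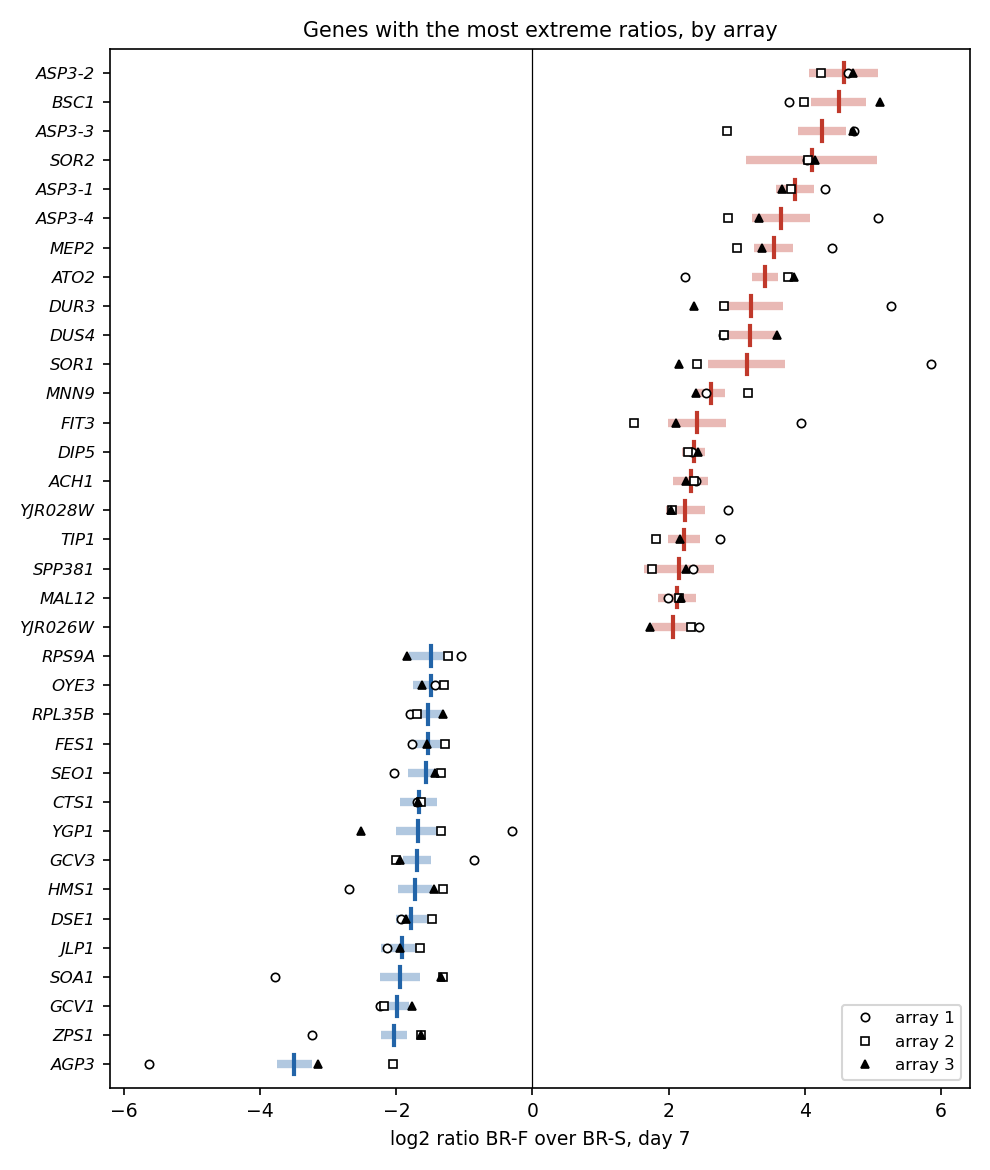
The x axis gives the log2 ratio of BR-F over BR-S on day 7 for each of the 35 genes with the most extreme ratios, 20 higher and 15 lower, with 1 symbol per array and the mean with its standard error. Array 1 (circles) lies apart from the other 2 arrays at *SOR1*, *AGP3*, *DUR3*, *SOA1* and *FIT3*, among others.

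Nitrogen-repressed permeases were higher in BR-F as a group. Of 10 permeases tested, 8 were higher (80%, against 6.08% of all genes) and none was lower. The median was 1.68 against 0.00 over all genes. *MEP2* (YNL142W), the high-affinity ammonium permease that also acts as a sensor in filamentous growth, gave 4.40, 3.01 and 3.38 (mean 3.54 ± 0.28, adjusted p = 0.000152, 11.7-fold), and BR-S was above background on 2 of the 3 arrays. Every array was above 3. *DUR3* (YHL016C), a urea and polyamine transporter, gave 5.27, 2.81 and 2.38. The mean of *DUR3* was 3.21 ± 0.47 (adjusted p = 0.00308). BR-S was not above background on any array for *DUR3*, so the size of the difference is uncertain. With BR-S signals below the lowest detected signal of each array raised to it, the mean was 8.61-fold, which is no lower bound. *DIP5* (YPL265W), the glutamate and aspartate permease, gave 2.34, 2.29 and 2.43 (mean 2.37 ± 0.17, adjusted p = 5.86e-05), the closest agreement of the permeases given by array. *GAP1* (YKR039W), the general amino acid permease, gave 1.01, 1.81 and 2.52 (mean 1.97 ± 0.25, adjusted p = 0.00121), all above 0 but spread over more than 1 unit. The proline permease *PUT4* (1.64 ± 0.20), the allantoin permease *DAL4* (1.72 ± 0.20), the allantoate permease *DAL5* (1.39 ± 0.27) and the ammonium permease *MEP1* (0.90 ± 0.20) were higher as well, with adjusted p-values of 0.00141, 0.00161, 0.0233 and 0.0174. Amino acid permease *AGP1* and peptide transporter *PTR2* did not pass, at 0.39 (adjusted p = 0.528) and 0.35 (adjusted p = 0.326). *MEP3* and *OPT2* were not measured in both biological replicates and *UGA4* on no array. Without array 1 or array 2 the count of 8 was 7, in each case of 9 tested. With array 3 left out only the first biological replicate remained, and 12 permeases were tested, so that count covers other genes. There *MEP1* (0.80) and *DAL5* (1.23) no longer passed.

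Enzymes that break down poor nitrogen sources followed, with none of 15 tested genes lower (median 0.86). Of these, 8 were higher (53.3%, against 6.08% of all genes), and 4 of the 8 are the *ASP3* copies. The others were the arginase *CAR1* (1.30 ± 0.18, adjusted p = 0.00169), the malate synthase of allantoin breakdown *DAL7* (1.27 ± 0.16, adjusted p = 0.00106), the proline oxidase *PUT1* (1.11 ± 0.28, adjusted p = 0.0278) and the allantoicase *DAL2* (0.86 ± 0.16, adjusted p = 0.00903), which without array 1 gave 0.47 (adjusted p = 0.137). *GDH2*, the glutamate dehydrogenase that releases ammonium, gave 0.28 (adjusted p = 0.292).

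Most ammonium assimilation genes were higher in BR-F too. The glutamine synthetase *GLN1* (YPR035W) gave 1.61, 1.33 and 1.30 (mean 1.38 ± 0.17, adjusted p = 0.00091), and the NADPH-dependent glutamate dehydrogenases *GDH1* and *GDH3*, whose sequences are alike enough to share signal, gave 1.58 ± 0.17 (adjusted p = 0.000541) and 1.74 ± 0.20 (adjusted p = 0.000721). All arrays of *GLN1* were above 0. The glutamate synthase *GLT1* gave 0.21 (adjusted p = 0.507). Among regulators, the GATA repressor *DAL80* (YKR034W) gave 4.10, -0.10 and 1.19 (mean 1.60 ± 0.44, adjusted p = 0.0463). This call rested on array 1, where the ratio was far above the others, and without it the ratio was 0.55 (adjusted p = 0.496). The activators *GAT1* and *GLN3* gave 0.04 (adjusted p = 0.902) and -0.29 (adjusted p = 0.314). Over the 12 genes of the regulators and assimilation enzymes tested, 4 were higher (33.3%, against 6.08% of all genes). None was lower and the median was 0.12.

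Of the 3 *ATO* genes, *ATO2* (YNR002C) was higher in BR-F, with 2.24, 3.75 and 3.84 on the 3 arrays (mean 3.42 ± 0.19, adjusted p = 1.3e-05). It had the smallest adjusted p of the genes named here, and array 1 was the lowest of the 3. *ATO3* gave -0.54, -0.03 and -0.26 (adjusted p = 0.314) and *ADY2*, also known as *ATO1*, 1.94, 1.04 and 0.01 (adjusted p = 0.327), so the *ADY2* arrays ran from near 0 to almost 2. Ato proteins are proposed ammonium exporters or acetate transporters of ageing colonies.

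Among 22 other amino acid permeases tested, 4 were higher and 3 lower (18.2% and 13.6%, against 6.08% and 5.1% of all genes). The arginine permease *CAN1* gave 1.21, 1.33 and 1.28 (mean 1.27 ± 0.19, adjusted p = 0.00259) and the vacuolar basic amino acid transporter *VBA3* 1.39 ± 0.24 (adjusted p = 0.00453). Permeases for methionine and its derivative were lower, with the high-affinity permease *MUP1* at -1.67, -0.82 and -1.19 (mean -1.22 ± 0.18, adjusted p = 0.00259) and the S-methylmethionine permease *MMP1* at -0.99 ± 0.26 (adjusted p = 0.0339). All arrays of *CAN1* were above and all of *MUP1* below 0. Without array 2 *MMP1* gave -0.87 (adjusted p = 0.055). In amino acid synthesis, the argininosuccinate synthetase *ARG1* (1.74 ± 0.26, adjusted p = 0.00252) was the only gene called of 11 for arginine, and asparagine synthetase *ASN1* (1.14 ± 0.14, adjusted p = 0.00106) and the cytosolic branched-chain aminotransferase *BAT2* (1.26 ± 0.21, adjusted p = 0.00453) were higher. The transcription factor *GCN4*, which activates amino acid synthesis genes, gave 0.50, 0.42 and -1.20 (adjusted p = 0.509), with arrays on both sides of 0. Without array 3 no permease of this list was higher and 1, *AGP3*, was lower.

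Genes for alternative sulfur sources were lower in BR-F, 4 of 5 tested (80%, against 5.1% of all genes), with a median of -1.56. *JLP1* (YLL057C), a dioxygenase that releases sulfite from sulfonates, gave -2.14, -1.65 and -1.94 (mean -1.92 ± 0.31, adjusted p = 0.00358), and *SOA1* (YIL166C), a transporter of inorganic and organic sulfur compounds, -3.78, -1.31 and -1.34 (mean -1.95 ± 0.29, adjusted p = 0.00635). All 6 of these ratios were below -1. The cysteine transporter *YCT1* gave -1.49 ± 0.24 (adjusted p = 0.00358) and the putative permease *SEO1* -1.56 ± 0.26 (adjusted p = 0.00453). In sulfate assimilation and methionine synthesis, 4 of 26 were lower, namely the ATP sulfurylase *MET3* (-1.0 ± 0.16, adjusted p = 0.00358), the homoserine acetyltransferase *MET2* (-1.04 ± 0.19, adjusted p = 0.00608), the cystathionine beta-lyase *STR3* (-0.96 ± 0.20, adjusted p = 0.0114) and the homocysteine synthase *MET17* (-0.91 ± 0.17, adjusted p = 0.00635), and the list's median was -0.16. Without array 1 *MET17* gave -0.64 (adjusted p = 0.0699). With array 3 left out, 1 gene of the alternative sources and none of the methionine list passed.

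Glycine cleavage was lower in BR-F in each of its specific subunits. *GCV1* (YDR019C) gave -2.25, -2.19 and -1.77 (mean -1.99 ± 0.17, adjusted p = 0.000152), *GCV3* (YAL044C) -0.86, -2.0 and -1.95 (mean -1.69 ± 0.21, adjusted p = 0.00091), and *GCV2* -1.25 ± 0.26 (adjusted p = 0.0124). *GCV1* lay near -2 on all arrays, while array 1 of *GCV3* was nearer to 0 than the others. The cytosolic serine hydroxymethyltransferase *SHM2* (-1.32 ± 0.21, adjusted p = 0.00358), the folate dehydrogenase *MTD1* (-0.92 ± 0.16, adjusted p = 0.00532) and the GTP cyclohydrolase *FOL2* (-0.81 ± 0.14, adjusted p = 0.00583) were lower too, which made 6 of 13 genes, none being higher. The mitochondrial enzyme *SHM1* gave 0.36 (adjusted p = 0.121). Purine synthesis, which uses one-carbon units, had a median of -0.24 and no gene higher. Of its 23 genes tested, 6 were lower (26.1%, against 5.1% of all genes). The largest of these were *ADE2* (-1.03 ± 0.17, adjusted p = 0.00392) and *ADE13* (-1.02 ± 0.18, adjusted p = 0.00507), and *ADE1* gave -0.75 (adjusted p = 0.0611). Without array 3, 2 glycine and one-carbon genes and none of the purine genes passed.

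In sugar use, part of the genes for maltose and isomaltose were higher in BR-F and part of the hexose transporters lower. Of 15 maltose and isomaltose genes, 7 were higher and 1 lower (46.7% and 6.67%, against 6.08% and 5.1% of all genes). The median of these genes was 1.07. Their ratios ran from -1.60 to 2.28, with 11 above 0, and the member at -1.60 did not pass. The maltase *MAL12* (YGR292W) gave 1.98, 2.15 and 2.18 (mean 2.12 ± 0.29, adjusted p = 0.00151), nearly the same on every array. The maltose permease *MPH2* gave 1.68 ± 0.20 (adjusted p = 0.00091), and the isomaltases *IMA4*, *IMA2* and *IMA1* 1.71 ± 0.21, 1.70 ± 0.27 and 1.56 ± 0.35, with adjusted p-values of 0.00106, 0.00358 and 0.0171. Members of these families are near identical and share signal, so the 7 are fewer independent observations. *ZNF1*, a regulator of growth on nonfermentable carbon sources, was the lower gene (-0.93 ± 0.27, adjusted p = 0.0469), and without array 1 it gave -0.78 (adjusted p = 0.0728). Of 18 hexose transporters, 5 were lower (27.8%, against 5.1% of all genes), none was higher and the median was -0.90. *HXT3*, a low-affinity glucose transporter, gave -0.96, -1.04 and -0.93 (mean -0.97 ± 0.19, adjusted p = 0.00993), and the high-affinity *HXT6* -0.93 ± 0.21 (adjusted p = 0.0173), which is near identical to *HXT7* (-0.74, adjusted p = 0.0864). *HXT3* was close to -1 on each array. The regulator of glucose sensing *MTH1* gave -1.09 ± 0.28 (adjusted p = 0.0308), but without array 1 -0.91 (adjusted p = 0.0557). Without array 3, 3 maltose and isomaltose genes passed and no hexose transporter did.

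Lipid and organic acid use was higher in part. Of 18 genes of peroxisomal beta-oxidation 6 were higher (33.3%, against 6.08% of all genes) and none lower (median 0.54). The acyl-CoA oxidase *POX1* (YGL205W) gave 2.28, 1.31 and 1.75 (mean 1.77 ± 0.16, adjusted p = 0.000152), the enoyl-CoA isomerase *ECI1* 1.71 ± 0.20 (adjusted p = 0.000721), the peroxisomal catalase *CTA1* 1.43 ± 0.20 (adjusted p = 0.00188) and the dienoyl-CoA reductase *SPS19* 1.31 ± 0.15 (adjusted p = 0.000691). The thiolase *POT1* gave 0.83 ± 0.22 (adjusted p = 0.0365), while *FOX2*, the multifunctional enzyme of the same pathway, gave 0.76 (adjusted p = 0.0556). Of 16 glyoxylate cycle and gluconeogenesis genes, 4 were higher (25%, against 6.08% of all genes, median 0.35). Among them were the fructose-1,6-bisphosphatase *FBP1* (1.36 ± 0.29, adjusted p = 0.0139) and the lactate and pyruvate permease *JEN1* (1.14 ± 0.19, adjusted p = 0.00483). *PCK1*, the other key enzyme of gluconeogenesis, gave -0.20 (adjusted p = 0.656). In the TCA cycle 4 of 16 were higher (25%, against 6.08% of all genes, median 0.44). They were the succinate dehydrogenase subunits *SDH4* (1.37 ± 0.28), *SDH1* (1.00 ± 0.20) and *SDH3* (0.84 ± 0.20) and the fumarase *FUM1* (0.97 ± 0.17), with adjusted p-values of 0.012, 0.0113, 0.0242 and 0.00608. The glycerol kinase *GUT1*, the entry to the carbon source of the medium, gave 1.47, 0.35 and 0.87 (mean 0.89 ± 0.18, adjusted p = 0.0117), and without array 1 0.61 (adjusted p = 0.0749). Without array 3, 4 beta-oxidation genes passed and none of the glyoxylate or TCA cycle did.

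Of 24 iron uptake genes tested 10 were higher in BR-F and 3 lower (41.7% and 12.5%, against 6.08% and 5.1% of all genes). The median was 0.33. The wall mannoproteins that retain siderophore iron rose together, *FIT3* with 3.95, 1.49 and 2.11 (mean 2.42 ± 0.43, adjusted p = 0.00597), *FIT2* with 1.22 ± 0.19 (adjusted p = 0.00358) and *FIT1* with 1.12 ± 0.20 (adjusted p = 0.00774). Array 1 of *FIT3* was the highest by far. The multicopper ferroxidase *FET3* gave 0.84 ± 0.16 (adjusted p = 0.00948), the siderophore transporter *SIT1* 1.05 ± 0.17 (adjusted p = 0.00419), the haem oxygenase *HMX1* 1.37 ± 0.19 (adjusted p = 0.00173) and the iron regulator *AFT1* 1.01 ± 0.22 (adjusted p = 0.0141). Lower were *TIS11*, which promotes the decay of mRNAs for iron-using proteins (-1.05 ± 0.23, adjusted p = 0.0159), the vacuolar reductase *FRE6* (-1.01 ± 0.23, adjusted p = 0.0315) and the enterobactin transporter *ENB1* (-0.75 ± 0.21, adjusted p = 0.0427). The ferroxidase's partner *FTR1* gave 0.38 (adjusted p = 0.408), and *FET4*, a low-affinity transporter at 1.69, gave 1.29 without array 1 (adjusted p = 0.0913). None of the 24 passed without array 3.

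Some copper and zinc genes were lower, 3 of 11 for copper (27.3%, against 5.1% of all genes). The near-identical metallothionein copies *CUP1-1* and *CUP1-2*, which bind copper, gave -1.26 ± 0.18 (adjusted p = 0.00186) and -1.29 ± 0.22 (adjusted p = 0.00483), and the metallothionein *CRS5* -0.97 ± 0.17 (adjusted p = 0.00608). *CUP1-1* was below -1 on each array, with -1.51, -1.30 and -1.11. Of 13 zinc genes, 4 were lower (30.8%) and none higher. *ZPS1* was followed by the membrane protein *IZH4* (-1.26 ± 0.20, adjusted p = 0.00358), the low-affinity transporter *ZRT2* (-0.95 ± 0.24, adjusted p = 0.0306) and the vacuolar transporter *COT1* (-0.62 ± 0.15, adjusted p = 0.0283). The high-affinity zinc transporter *ZRT1*, a defining target of the zinc regulator, gave 0.03, -0.26 and 0.01 (adjusted p = 0.929), on both sides of 0. Without array 3, 1 copper and 2 zinc genes passed, and without array 1 *COT1* gave -0.47 (adjusted p = 0.0768).

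At the cell surface, the adhesin *FLO11* (YIR019C) was measured on arrays 2 and 3 only and gave 0.23 and 0.04 (mean 0.14 ± 0.14, adjusted p = 0.595). Its intensities on these arrays were 1250 and 2732 in BR-F and 1772 and 4734 in BR-S, all above background. The paper's RNA blots of colonies of these strains differ from this, with *FLO11* mRNA in BR-S low and revealed by stronger exposure. The paper also states that production of the protein is switched off on domestication. These ratios are therefore no evidence that *FLO11* was equal in the strains, and the reason for the disagreement was not tested. Of 6 flocculins and relatives tested, *BSC1* was higher and *FLO9* lower (-1.27 ± 0.29, adjusted p = 0.0202), the latter not without array 3 (adjusted p = 0.0701). *FLO* genes share repeats, so their probes may share signal. Genes of daughter cell separation had 3 of 9 lower (33.3%, against 5.1% of all genes) and none higher (median -0.49). The chitinase *CTS1* (YLR286C), which cleaves the septum, gave -1.69, -1.64 and -1.69 (mean -1.67 ± 0.27, adjusted p = 0.00392), the daughter-specific wall protein *DSE1* -1.93, -1.48 and -1.85 (mean -1.78 ± 0.22, adjusted p = 0.00106), and the glucanase-like *SCW11* -0.64 ± 0.18 (adjusted p = 0.0424). Ratios of *CTS1* and *DSE1* lay close together on the 3 arrays, and *SCW11* without array 1 gave -0.59 (adjusted p = 0.0536). With array 3 left out 1 gene of the list passed, *DSE1*.

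Of 17 structural wall proteins listed, none was higher, the median was -0.30 and 4 were lower (23.5%, against 5.1% of all genes). Besides *ZPS1* and *YGP1* these were *HSP150* (-1.03 ± 0.22, adjusted p = 0.0136) and *CCW14* (-0.95 ± 0.14, adjusted p = 0.00358). The abundant *CCW12* and *SED1* gave 0.00 (adjusted p = 0.999) and -0.67 (adjusted p = 0.135). The wall mannoprotein *TIP1*, higher at 2.22, was not in this list or the next. Seripauperins and TIR and DAN mannoproteins are made at low oxygen or in the cold. Of 27 tested, 6 were higher (22.2%, against 6.08% of all genes) and none lower (median 0.48). All 6 were *PAU* genes, led by *PAU3* (1.63 ± 0.29, adjusted p = 0.00794) and *PAU1* (1.44 ± 0.18, adjusted p = 0.0011), whose sequences are near identical. *TIR1* gave 0.47 (adjusted p = 0.153). In N-glycosylation, *MNN9* and the glucosidase *CWH41* (1.10 ± 0.21, adjusted p = 0.00941) were the 2 of 41 genes called, and the median was 0.14. Their share of 4.88% was below the 6.08% of all genes called higher. Without array 3, 1 gene of each of these 3 lists passed.

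Of 23 regulators of filamentous growth tested, 3 were higher and 3 lower (13.0% each, against 6.08% and 5.1% of all genes). *TEC1* (YBR083W), the transcription factor of the filamentous MAP kinase pathway, gave 1.15, 0.82 and 0.86 (mean 0.92 ± 0.24, adjusted p = 0.035) and *MGA1*, related to heat shock factors, 1.20 ± 0.19 (adjusted p = 0.00358). *HMS1* (YOR032C), a helix-loop-helix protein whose overexpression drives pseudohyphal growth, gave -2.69, -1.32 and -1.45 (mean -1.73 ± 0.25, adjusted p = 0.00208), the homeobox protein *TOS8* -1.37 ± 0.23 (adjusted p = 0.00435) and the repressor *NRG2* -1.17 ± 0.28 (adjusted p = 0.0253). All arrays of *TEC1* were above and all of *HMS1* below 0. The repressor *NRG1* gave 0.66 ± 0.18 (adjusted p = 0.0367), and without array 1 0.58 (adjusted p = 0.0664). The activator *FLO8* gave -0.14, 0.51 and 0.89 (adjusted p = 0.201). Without array 3, 1 regulator of the list was higher and 1 lower. In other signalling lists the TOR complex subunit *LST8* was lower (-0.83 ± 0.16, adjusted p = 0.00909). It was the only gene called of 22 in its list (4.55%, against 5.1% of all genes). *RLM1*, the transcription factor of the cell wall integrity pathway, was lower too (-0.78 ± 0.18, adjusted p = 0.0187), 1 of 2 lower genes of 17 (11.8%). Without array 3 neither *LST8* nor *RLM1* kept its call, at ratios of -0.80 and -0.81. The protein kinase A subunit *TPK2* gave -0.37 (adjusted p = 0.299).

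Cytosolic ribosomal protein genes, the largest list, had the most lower members by count. Of 130 tested, 52 were lower (40%, against 5.1% of all genes) and 1 was higher. By share, alternative sulfur sources (80%), aryl-alcohol dehydrogenases (50%) and glycine and one-carbon enzymes (46.2%) had more lower members. The median of the ribosomal protein genes was -0.58, and it was -0.83, -0.53 and -0.54 on arrays 1 to 3. *RPL35B* gave -1.80, -1.70 and -1.31 (mean -1.53 ± 0.21, adjusted p = 0.00173) and *RPS9A* -1.05, -1.24 and -1.84 (mean -1.49 ± 0.32, adjusted p = 0.0143), and both were below -1 on every array. The higher gene was the acidic stalk protein *RPP1A* at 1.56 ± 0.32 (adjusted p = 0.0126), which without array 2 gave 1.23 (adjusted p = 0.0548). Most ribosomal proteins come from pairs of near-identical genes that share signal. Ribosomal protein spots were also among the brightest. Their median log2 intensity exceeded that of all genes by 1.04, 0.68 and 0.47 in BR-F and by 1.85, 1.33 and 1.08 in BR-S on arrays 1 to 3. Ribosome biogenesis genes had 9 of 74 lower (12.2%, against 5.1% of all genes) and none higher, with a median of -0.19. They were led by *RPA135*, a large subunit of RNA polymerase I (-1.25 ± 0.24, adjusted p = 0.00845). Without array 3, 7 ribosomal protein genes and no biogenesis gene were lower, and without array 1 the numbers were 41 and 3.

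Heat shock chaperones were lower in part, 10 of 44 (22.7%, against 5.1% of all genes), with a median of -0.26. The 2 higher ones were 4.55% of the list, below the 6.08% of all genes. The disaggregase *HSP104* (YLL026W) gave -0.98, -1.10 and -1.23 (mean -1.14 ± 0.17, adjusted p = 0.00234), the Hsp110 nucleotide exchange factor *SSE1* -1.24 ± 0.20 (adjusted p = 0.00358), and *FES1* (YBR101C), an exchange factor of the cytosolic Hsp70, -1.77, -1.28 and -1.55 (mean -1.54 ± 0.23, adjusted p = 0.00259). All arrays of *HSP104* and *FES1* were below 0 by similar amounts. The small heat shock protein *HSP26* gave 0.08, -1.81 and -1.69, with array 1 near 0, and without array 2 it was -0.80 (adjusted p = 0.22). Higher were *HSP33* (1.30 ± 0.16, adjusted p = 0.00106) and the heat shock factor *HSF1* (0.58 ± 0.16, adjusted p = 0.0391, and 0.54 without array 2 with an adjusted p of 0.06), and the inducible Hsp70 *SSA4* gave -0.21 (adjusted p = 0.808). Oxidative stress genes were divided, 6 of 35 higher and 5 lower (17.1% and 14.3%, against 6.08% and 5.1% of all genes). The peroxisomal catalase *CTA1* was the highest and the NADPH oxidoreductase *OYE3*, or old yellow enzyme, the lowest (-1.50 ± 0.25, adjusted p = 0.00442). The mitochondrial superoxide dismutase *SOD2* gave 0.64 ± 0.18 (adjusted p = 0.0479), and without array 2 0.60 (adjusted p = 0.057). Among general stress genes *DDR2* gave -0.91 ± 0.21 (adjusted p = 0.0186), and without array 1 -0.69 (adjusted p = 0.0594), while *HSP12* gave 0.37 (adjusted p = 0.654). Without array 3 no chaperone was lower, and 1 oxidative stress gene was higher and none lower, against 4 and 3 without array 1.

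**Figure D3:**
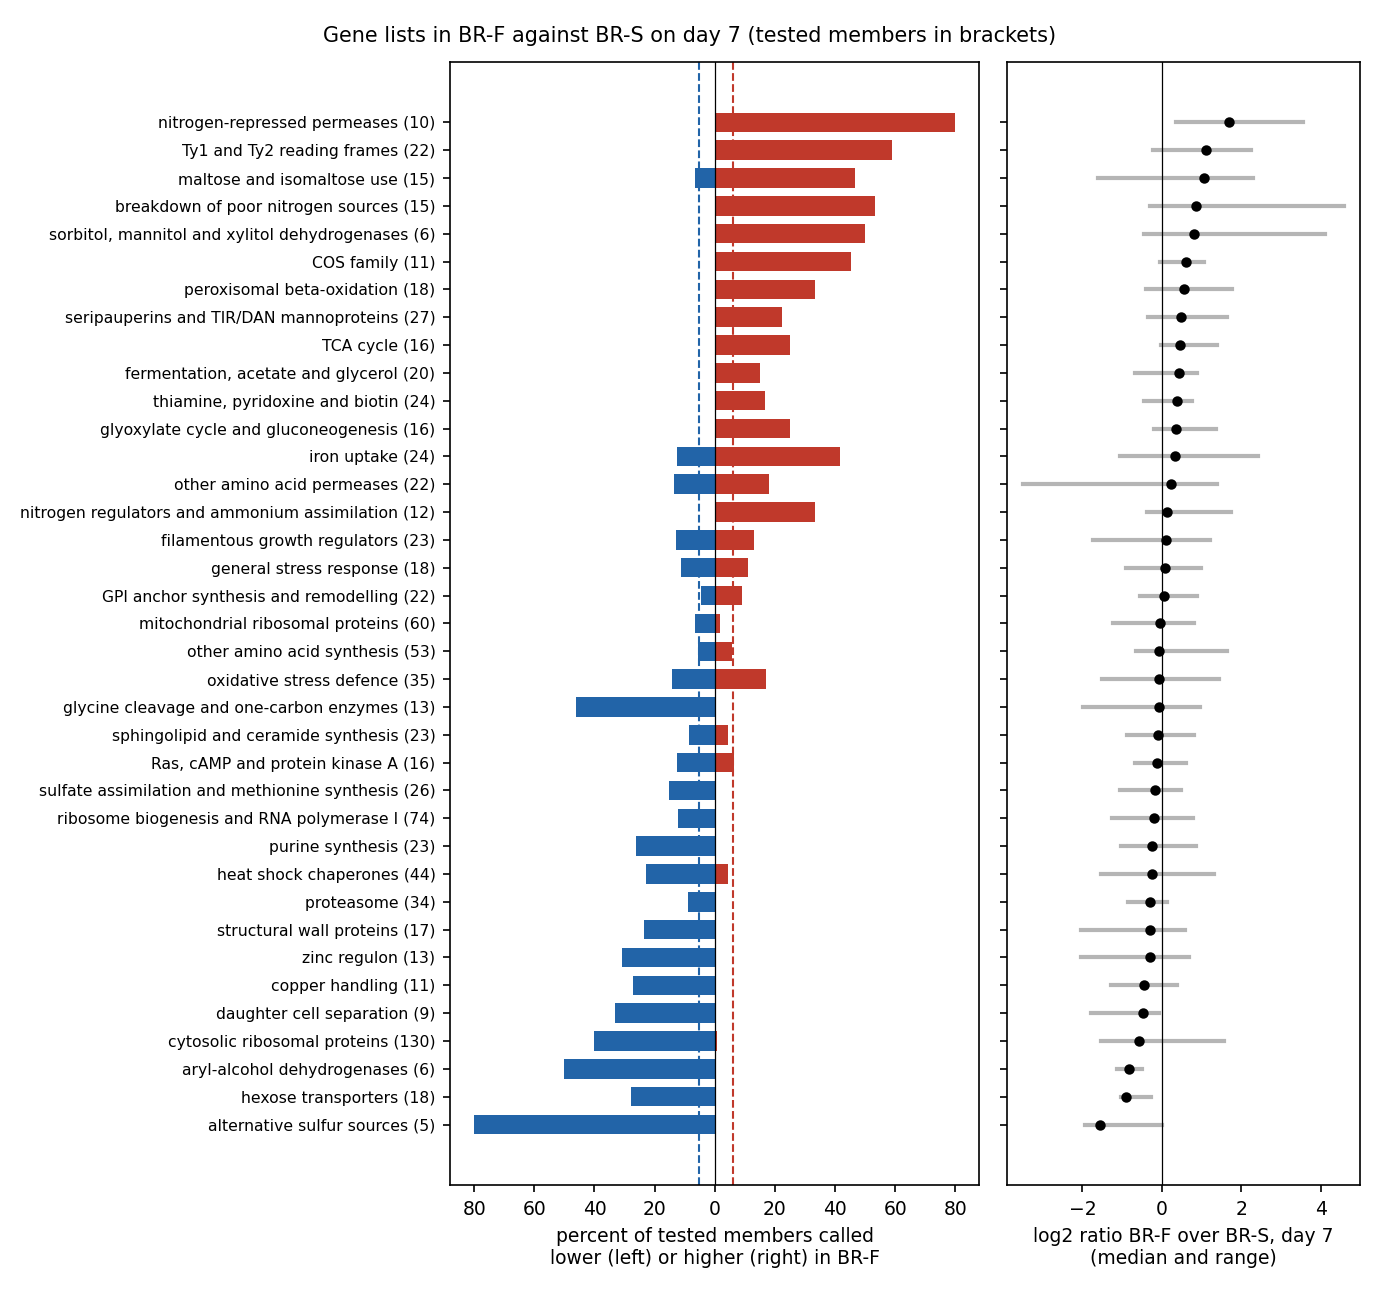
Left, the percent of tested members of each gene list drawn that were called lower (bars to the left) or higher (bars to the right) in BR-F. Right, the median and range of the log2 ratios of its members on day 7. Lists with few tested members, or with few or no called genes, are not drawn. Nitrogen-repressed permeases (8 of 10 higher) and alternative sulfur sources (4 of 5 lower) show the largest shares.

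Several lists held no called gene. They were those of the deacetylases and silencers, cyclins and G1 regulators, mating and pheromone response, O-mannosylation, SEC genes and ribonucleotide reductase. At an unadjusted p under 0.05 in limma they held 3 of 17, 2 of 14, 2 of 15, 2 of 8, 6 of 34 and 1 of 6 tested genes, against 1338 of 4902 overall. *HDA1* gave -0.08, -0.14 and -0.25 (adjusted p = 0.548) and *SIR2* 0.36, 0.98 and 0.84 (adjusted p = 0.0793). Of the 548 called genes, 280 belonged to 1 of the lists and 268 to none.

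The share of genes called higher was largest near chromosome ends, a count for which no test of position was made. Of the 125 tested genes at ranks 1 to 5 from an end, 43 were higher (34.4%, against 6.08% of all genes) and 5 lower, with a median of 0.45 and medians of 0.69, 0.46 and 0.39 on arrays 1 to 3. The share called higher was 14.9% at ranks 6 to 10, 10.1% at ranks 11 to 20, 5.63% at ranks 21 to 40 and 4.66% farther inside. The 43 genes comprised 6 of maltose, isomaltose and sorbitol use, 5 *PAU* genes, 4 *COS* genes, the 3 enolase-related *ERR* genes, 3 *YRF1* helicase genes of the Y′ elements, 15 reading frames with a systematic name only and 7 others. *COS* genes encode membrane proteins that promote the vacuolar sorting of other membrane proteins, and 5 of the 11 tested were higher and none lower (median 0.61), led by *COS8* (1.06 ± 0.16, adjusted p = 0.00247). Copies at different ends are near identical, so the 43 do not stand for as many observations. Without array 1 or 2 the count of 43 was 40 and 43, and without array 3 it was 7, with no *COS* gene called. Aryl-alcohol dehydrogenases, which also lie near the ends, went the other way, with 3 of 6 lower and none higher, such as *AAD15* (-1.12 ± 0.24, adjusted p = 0.0136) and *AAD3* (-1.01 ± 0.19, adjusted p = 0.00736), and none lower without array 3.

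**Figure D4:**
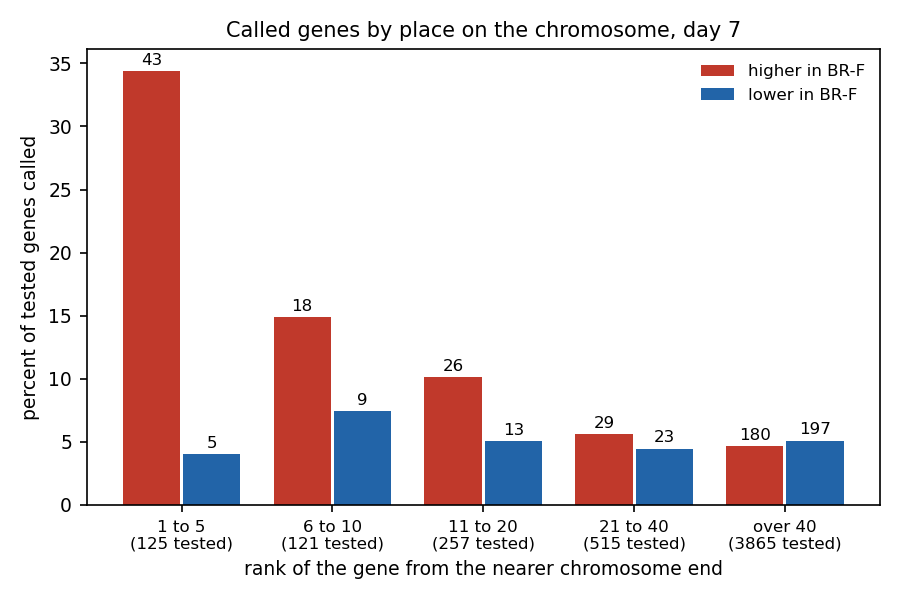
Bars give the percent of tested genes called on day 7 in either direction, by the rank of the gene from the nearer chromosome end. The share called higher falls from 34.4% at ranks 1 to 5 to 4.66% beyond rank 40, and the share called lower stays between 4.0% and 7.44%.

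Reading frames of the retrotransposons Ty1 and Ty2 had 13 of 22 tested members higher and none lower, with a median of 1.11. *YJR028W* gave 2.87, 2.04 and 2.04 (mean 2.25 ± 0.29, adjusted p = 0.0012) and *YJR026W* 2.45, 2.33 and 1.73 (mean 2.06 ± 0.30, adjusted p = 0.00223), and neither had an array below 1.5. The copies are near identical and share signal, and this list was put together after the values had been seen. Without array 3, 9 members were called.

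Markers of other cell types gave no uniform picture. For sporulating cells, the meiotic inducer *IME1* (YJR094C) was higher with 1.55, 1.04 and 1.25 (mean 1.27 ± 0.23, adjusted p = 0.00635), but it was the only gene called of 16 for meiosis and spores and did not pass without array 3 (adjusted p = 0.0948). *SPS100*, a spore wall protein, gave -0.61 (adjusted p = 0.063) and *NDT80*, which drives exit from pachytene, 0.28 (adjusted p = 0.671). *DIT1*, *SPS1* and *SPS2* were not measured. For mating types, the alpha-factor receptor of a cells *STE2* gave 0.83 (adjusted p = 0.0809), the a-factor gene *MFA2* 0.14, *BAR1*, the protease of a cells, -0.31, the alpha-factor gene *MF(ALPHA)1* -0.17 and the alpha-agglutinin *SAG1* 0.04, and none passed the test. Of the markers of structured colony cells, *TEC1* and *MEP2* were higher, and *FLO11* gave the values above.

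The arrays of the same couple from day 4 show how far these differences depend on colony age. On day 4, 129 of 4350 genes tested were higher in BR-F (2.97%) and 75 lower (1.72%). Over the 4179 genes tested on both days, 94 were higher on both, which is 33.9% of the 277 higher on day 7 and 74.6% of the 126 higher on day 4, and 37 were lower on both, 16.4% of the 225 of day 7 and 50% of the 74 of day 4. The ratios of the days correlated at r = 0.664 across genes, which are not independent replicates. Of the genes called on day 7, 253 of 277 higher ones (91.3%) had a ratio above 0 on day 4 and 203 of 225 lower ones (90.2%) a ratio below 0. *ASP3-2* and *BSC1* had day 4 ratios of 4.71 and 4.64, near those of day 7, while *MEP2* had 1.41 and *GAP1* 0.41. Only 13 genes differed between the days in the limma contrast (0.311%), and 369 did at an unadjusted p under 0.05. *MEP2* (adjusted p = 0.0878) and *GAP1* were not among the 13. Without array 1, 2 or 3 of day 7, 16, 9 and 2 genes differed. Array 3 has opposite dyes on the 2 days, so effects of the dye enter this contrast.

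The widest of these differences lay in sulfur genes. The ratio of *JLP1* fell from 3.24 on day 4 to -1.92 on day 7, a difference of -5.16 ± 0.43 (adjusted p = 0.000753). *YCT1*, *SEO1*, *MET3* and *MET17* were above 0 on day 4 as well, at 1.03, 0.85, 0.88 and 0.74, and below it on day 7. In the list of alternative sulfur sources 2 genes were higher in BR-F on day 4, against 4 lower on day 7. The ratios of *GCV1*, *ZPS1* and *ATG41*, an autophagy gene, were lower on day 7 as well, with differences of -1.42, -1.78 and -1.61. In the other direction *DIP5* went from 0.72 to 2.37 (adjusted p = 0.0189), *POX1* from 0.45 to 1.77 (adjusted p = 0.0384) and *SHH4*, a paralogue of the succinate dehydrogenase subunit *SDH4*, from -0.91 to 1.23 (adjusted p = 0.00908).

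**Figure D5:**
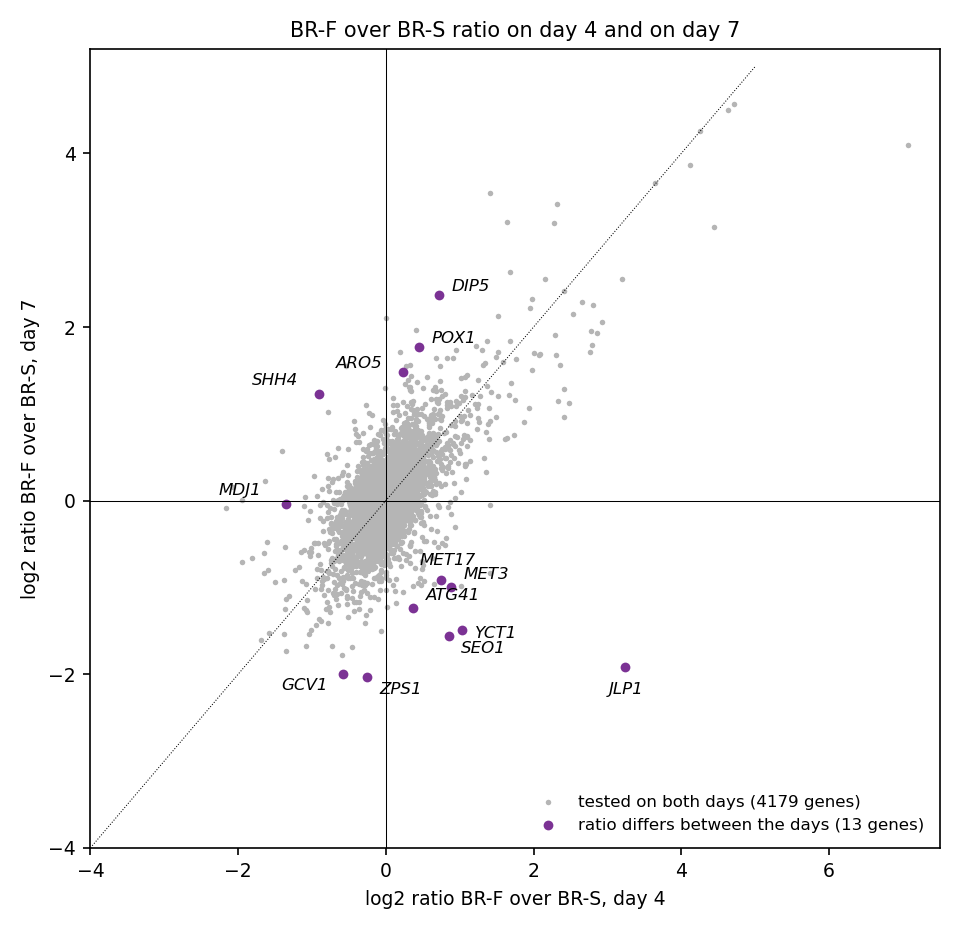
Each point is a gene tested on both days, with its log2 ratio of BR-F over BR-S on day 4 (x axis) and on day 7 (y axis), 4179 genes in all. The 13 genes whose ratio differed between the days are coloured, and *JLP1* lies farthest from the diagonal, at 3.24 on day 4 and -1.92 on day 7.

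The feral strain BR-RF was hybridised against BR-S on day 7 too. These arrays share the BR-S strain with the present ones, so values are only set side by side here, first BR-F over BR-S and then BR-RF over BR-S. *MEP2* gave 3.54 and 2.45, *BSC1* 4.50 and 3.63, *DUS4* 3.20 and 2.61, and *MNN9* 2.63 and 2.19. For these genes both ratios were well above 0. *DIP5* gave 2.37 and 0.53, *ATO2* 3.42 and 0.84, *FIT3* 2.42 and -0.07, and *JLP1* -1.92 and 0.59. *MAL12* gave 2.12 and -1.42, the only gene of this paragraph with calls of opposite sign (adjusted p = 0.00151 and 0.00913). *GCV1* gave -1.99 and -1.98 and *HXT3* -0.97 and -1.78, below 0 in both.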

How the data were processed

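Polyadenylated RNA from whole giant colonies of BR-F and BR-S was compared on 2-colour spotted arrays with 13056 spots, of which 1910 had no gene name and 11146 named 5543 genes. The deposited array files hold median Cy3 and Cy5 intensities, which the authors measured with TIGR Spotfinder, and per the file headers the local background had been subtracted and no other normalization applied. A deposited table of log2 ratios (Cy5 against Cy3) had been normalised by the authors by LOWESS in MIDAS. It served as an alternative, with the 48 print blocks put in the order of the probes. LOWESS columns found in some of the array files were not used. No genome build was given in the sources used here. Sequences were not analysed here, and R64 gene names and gene order were used (5 genes were not matched). Probes overlap between near-identical genes, which share signal.

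Spots marked as poor or with an intensity of 0 or less were left out, and log2 ratios were normalised within each array by loess (span 0.3, unnamed spots without weight) in limma 3.58.1 (R 4.3.3). Spots of a gene were averaged, ratios were turned to BR-F over BR-S, and arrays 1 and 2 were averaged to biological replicate 1 of 2. The study's text calls the 3 arrays biological replicates. lmFit and eBayes were run over the 12 ratios of all 6 couples and days, which pools the spread (6 residual and 4.64 prior degrees of freedom), with two-sided tests, Benjamini-Hochberg adjustment over all tested genes and calls at an adjusted p under 0.05. A probe was above background where its intensity exceeded it by 2 SDs of the background. For genes not above background in a strain, a fold was also computed with signals below the lowest detected signal of each array raised to it. Higher signals were kept as measured, so these folds are not lower bounds, and they are open to dye bias. Precision is limited by the number of arrays. The test was run on simulated data with known changes.

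Named were the 15 genes called with the largest and the 15 with the smallest ratio and the same sign on all arrays, family copies counting as 1, the anchors of each gene list and up to 6 called members of it, and up to 5 genes in each direction that differed between days. The other genes called between days, list members that did not pass, such as *GDH2*, *SHM1*, *FOX2*, *PCK1* and *FTR1*, and further called members (*MEP1*, *DAL2*, *DAL5*, *PUT1*, *AFT1*, *SIT1*, *FRE6*, *ENB1*, *HSF1*, *ZNF1*) were named after their values were seen. The couple, the 62 lists (1, of Ty frames, matched no gene) and the tests were chosen with earlier results of these data known. A list of Ty1 and Ty2 frames and the classes within chromosome ends were added after the values were seen. Alternatives covered the value table, median centring, print-tip loess, poor and dim spots, an offset of 50, spots per gene, the replicate structure, dye effects, each array left out, a replicate block, and the study's limits of 1.5-fold and p under 0.05.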

Additional observations from a re-analysis of the deposited data

Results flagged for a closer look

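The ratio of BR-F over BR-S differed between days 7 and 4 for 13 genes, by the limma contrast of the days. The difference on the log2 scale, day 7 minus day 4, was -5.16 for the sulfonate dioxygenase *JLP1*, -2.53 for the cysteine transporter *YCT1*, -2.41 for the permease *SEO1*, -1.88 for the ATP sulfurylase *MET3* and -1.66 for the homocysteine synthase *MET17*. It was -1.78 for the zinc-regulated wall protein *ZPS1*, -1.61 for the autophagy gene *ATG41* and -1.42 for the glycine cleavage subunit *GCV1*. It was positive for the succinate dehydrogenase paralogue *SHH4* (2.14), the permease *DIP5* (1.65), the acyl-CoA oxidase *POX1* (1.32), the mitochondrial chaperone *MDJ1* (1.32) and *ARO5* (1.25). Adjusted p-values ran from 0.000753 for *JLP1* to 0.0455 for *MDJ1*. *MDJ1* gave -1.12, 0.56 and 0.21 on the day 7 arrays, on both sides of 0, and -1.36 on day 4. Groups held 3 arrays each, too few for a test of single arrays that stand apart.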

How the results depend on the processing

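Over the alternatives that leave out no array, the number of genes called between the strains on day 7 was 429 to 819, against 548, and the median ratio of all genes was -0.02 to 0.00. Print-tip loess called 456 genes higher. With the dye effect taken off array 3, 812 genes were called in all, of which 528 were shared with the 548. Without single arrays the total was 93 to 577, the genes called higher 68 to 298 and those called lower 25 to 279, the lowest of each without array 3, where the couple rests on the first biological replicate and its spread is taken from the other couples; 73.1% of those calls were higher, against 54.4%. The genes that differed between days, 13, were 25 with the value table, 8 with median centring, 35 with print-tip loess, 30 with 3 arrays as replicates, 25 with the dye effect taken off array 3 and 287 by the study's limits of 1.5-fold and p under 0.05 without adjustment, and 2 to 16 without single arrays. Of 206 called genes taken up by the naming rule, 194 kept their call with the value table, 179 with median centring, 191 with print-tip loess and 194 with 3 arrays as replicates, and none changed its direction. Of the 35 genes with the most extreme ratios, 25 to 35 kept their call without single arrays.

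With the replicate number as a block, 457 genes were called, of which 446 were shared, 253 higher and 204 lower, 10 genes differed between days, and 183 of the 206 named genes kept their call. Deviations of same-numbered samples correlated at -0.54 to 0.32 over the 15 couples of groups, and nothing in the labels ties the numbers, so the samples share only a number. Changes near 1.5-fold were mostly below detection, and signal over background limits genes that are dim in either strain.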
